A study of Homo sapiens with 29 samples.

Results

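The cytosolic ribosome is built from a small and a large subunit, each a ribosomal RNA core covered by proteins, most of which are needed in equal numbers. Most mRNAs of these proteins begin with a run of pyrimidines, the terminal oligopyrimidine (TOP) motif, through which mTORC1 and the RNA-binding protein LARP1 set their translation and stability together. In pancreatic β cells, insulin is a major product of this machinery.

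The genes described here are the protein-coding genes whose symbol is RPL or RPS followed by a digit, with RPLP0, RPLP1, RPLP2 and RPSA, and without the RPS6K kinases and pseudogenes. Of 91 genes with such names, 88 had a mean of at least 1 CPM (counts scaled to a common library total) over the 29 libraries, of 66025 entries in the deposited table. RPL3L, RPL10L and RPS4Y2 fell under that limit. The 88 were 46 large subunit genes, 31 small subunit genes, 7 paralogs (RPL7L1, RPL22L1, RPL26L1, RPL36AL, RPL39L, RPS4Y1 and RPS27L) and 3 read-through genes that join a ribosomal protein gene to its neighbour. The last was RPS19BP1, which the name rule takes in although it encodes a protein that binds RPS19 and is no ribosomal protein. FAU, which encodes a ribosomal protein fused to a ubiquitin-like protein, and RACK1 lie outside the name rule and are given apart.

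RNA came from EndoC-βH1, a human β-cell line, kept for 10 days in daily renewed medium that HEK293 cells, a human embryonic kidney line, had conditioned for 3 hours. The HEK293 lines stably overexpressed mutant CEL (MUT, 10 libraries), wild-type CEL (WT, 10) or an empty vector (EV, 9), so all 3 media had been on HEK293 cells, and their protein content was equalised. CEL is carboxyl ester lipase, a digestive enzyme that is mutated in the inherited diabetes MODY8. Neither the mutation nor the number of HEK293 clones is stated in the labels. The libraries are labelled with 3 batches, of which batches 3 and 2 held 3 libraries per medium and batch 1 held 4 MUT, 4 WT and 3 EV libraries. The labels do not state what differed between batches or whether replicate libraries are separate cultures. The p-values therefore rest on library-to-library spread that may be only technical.

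The start of 14 genes is shown because it carries the TOP motif at the exact start in these main copies and in only 1 of these 4 paralogs. Each line gives 15 bases before and 15 from the annotated transcription start in RefSeq (GRCh38.p14), 5′ to 3′ on the gene's strand. Capitals mark the unbroken run of C and T from the start, where the start is a C followed by at least 4 bases that are C or T.
RPLP0: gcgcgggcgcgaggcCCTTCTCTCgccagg
RPSA: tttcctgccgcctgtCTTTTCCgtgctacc
RPS6: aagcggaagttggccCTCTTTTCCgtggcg
RPS18: cgcgtcacttccgctCTCTCTTCCacagga
RPS24: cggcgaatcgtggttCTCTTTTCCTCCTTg
RPS25: tctgagcagcgcttcCTTTTTgtccgacat
RPS27: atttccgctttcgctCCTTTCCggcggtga
RPS27L: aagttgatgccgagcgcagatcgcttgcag
RPL26: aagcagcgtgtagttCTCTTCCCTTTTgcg
RPL26L1: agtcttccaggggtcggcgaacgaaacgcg
RPL22: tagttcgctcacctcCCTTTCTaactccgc
RPL22L1: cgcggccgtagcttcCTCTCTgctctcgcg
RPL36A: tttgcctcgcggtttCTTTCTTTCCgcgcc
RPL36AL: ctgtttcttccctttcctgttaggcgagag

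These windows lie at chr12:120201097-120201126 on the minus strand for RPLP0, chr3:39406705-39406734 on the plus strand for RPSA, chr9:19380222-19380251 on the minus strand for RPS6 and chr6:33272060-33272089 on the plus strand for RPS18. RPS24 is at chr10:78033848-78033877 (plus), RPS25 at chr11:119018329-119018358 (minus), RPS27 at chr1:153990747-153990776 (plus) and RPS27L at chr15:63157463-63157492 (minus). RPL26 is at chr17:8383179-8383208 (minus), RPL26L1 at chr5:172958714-172958743 (plus), RPL22 at chr1:6199581-6199610 (minus) and RPL22L1 at chr3:170870181-170870210 (minus). RPL36A is at chrX:101390996-101391025 (plus) and RPL36AL at chr14:49620612-49620641 (minus). For RPL26L1, with 2 starts in the table, the start listed first is shown.

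Of the 88 genes, 70 had a start in the RefSeq table. The motif, read on the transcript strand only, stood exactly at a start of 28 of 38 large subunit genes (73.7%) and 18 of 24 small subunit genes (75%). It stood at a start of 2 of 6 paralogs (33.3%), against 1404 of 27305 genes in the whole table (5.1%). Within 10 bases of a start it stood in 35 of 38 large subunit genes (92.1%), 22 of 24 small subunit genes (91.7%) and 3 of 6 paralogs, against 38.4% of all genes in the table. RPS27L, RPL26L1 and RPL36AL had none at their annotated start, while their main copies RPS27, RPL26 and RPL36A did. RPL36AL had one within 10 bases. RPL22 and its paralog RPL22L1 both had it. RPS4X, a main copy, had none at its start or within 10 bases of it.

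Library totals ran from 26.2 to 40.2 M estimated counts, and all 15 β-cell markers examined exceeded 1 CPM. Of 20 markers of other cell types, 4 exceeded it (CPA1, KRT19, COL1A1 and CD68). The summed level of the 20 was 101 to 149 CPM in MUT, 109 to 149 CPM in WT and 124 to 219 CPM in EV libraries, and AMY2A was at 0 in all 29. WT library 1 of batch 3, with the lowest total, stood apart from the other 9 WT libraries for 5 main copies and 1 paralog of these genes, and results that rest on it are given with and without it. EV library 2 of batch 1 carries a sample number that breaks the run of the others and was kept in its labelled group.

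Levels were compared between genes per kilobase of transcript (CPM per kb). The median level over genes was 445.5 CPM per kb for the large subunit and 428.7 CPM per kb for the small subunit, against 36.6 CPM per kb for the 7 paralogs. The 6 highest levels were those of RPS2 (1075 CPM per kb), RPLP0 (1072), RPS27 (964), RPL41 (903), RPS24 (886) and RPL6 (876). RPLP0 is the base of the stalk that recruits elongation factors. At the low end stood RPL26L1 (36.6 CPM per kb), RPS19BP1 (28.6), RPS27L (20.9), RPL22L1 (13.0), the read-through gene RPS10-NUDT3 (4.33) and RPL39L (3.24). Apart from the uncertain RPS9 (74.5 CPM per kb), the lowest main copy was RPL36A (77.2), whose level may depend on how reads were shared.

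Some entries are uncertain because the estimated counts share reads between similar transcripts. The 1516 non-coding entries with ribosomal protein names, mostly pseudogenes, summed to 603.3 CPM, and 26 of them reached 1 CPM. The highest included RPL23AP42 (189 CPM), RPS2P5 (119), RPL21P16 (93.2) and RPL36AP37 (43.8). The read-through gene RPL36A-HNRNPH2 had 27.7 CPM, against 53.3 CPM for RPL36A. How reads were shared between these entries and RPL23A, RPS2, RPL21 and RPL36A was not tested. RPL7A and RPS25 each had 1 other entry with the same values. RPS9 ran from 14.4 to 238 CPM across libraries and moved against 7 entries without a symbol. The sum of RPS9 and those entries was 229.1 ± 32.1 CPM (SD, n = 29), with a coefficient of variation of 14.0% against 120.2% for RPS9 alone. RPS9's own changes are therefore given only as uncertain values.

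The clearest difference was between batches. The 88 genes together took 2.63 to 2.84% of all counts in batch 3, 2.84 to 3.33% in batch 2 and 2.22 to 2.48% in batch 1. Every library of batches 3 and 2 lay above every library of batch 1. The large subunit genes took 1.60 ± 0.044% in batch 3 (SD, n = 9), 1.83 ± 0.093% in batch 2 (n = 9) and 1.40 ± 0.051% in batch 1 (n = 11). The small subunit genes took 1.07 ± 0.035%, 1.18 ± 0.084% and 0.907 ± 0.034% in batches 3, 2 and 1. The share of mitochondrial transcripts was highest in batch 1 (5.77 to 8.28%), where these genes took the least. It was 3.60 to 5.05% in batch 3 (mean 4.46%) and 3.99 to 5.41% in batch 2 (mean 4.70%). Of the counts that were not mitochondrial, the 88 genes took 2.76 to 2.99% in batch 3 and 2.96 to 3.49% in batch 2. In batch 1 they took 2.40 to 2.67%. The part of the mitochondrial share in the result was not tested.

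The ratio of large to small subunit counts was 1.49 ± 0.012 in batch 3 (SD, n = 9), 1.55 ± 0.033 in batch 2 (n = 9) and 1.54 ± 0.022 in batch 1 (n = 11). Its highest value in batch 3 (1.501) lay just under its lowest in batch 1 (1.504), but without the uncertain RPS9, a choice made after seeing the data, these batches overlapped (1.471 to 1.530 in batch 3 and 1.529 to 1.579 in batch 1). In batch 2 the ratio was 1.527 to 1.537 in MUT, 1.578 to 1.600 in WT and 1.498 to 1.557 in EV libraries, so that every WT library lay above the others. In batch 1 it was 1.557 to 1.576 in MUT, 1.525 to 1.545 in WT and 1.504 to 1.537 in EV libraries, with every MUT library above the others. Both of these orders were the same without RPS9. In batch 3 the MUT libraries (1.480 to 1.501) overlapped with the WT (1.467 to 1.493) and EV libraries (1.494 to 1.496), whereas without RPS9 they lay above them (1.512 to 1.530 in MUT, against at most 1.5 in WT and 1.5003 in EV libraries).

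**Figure D1:**
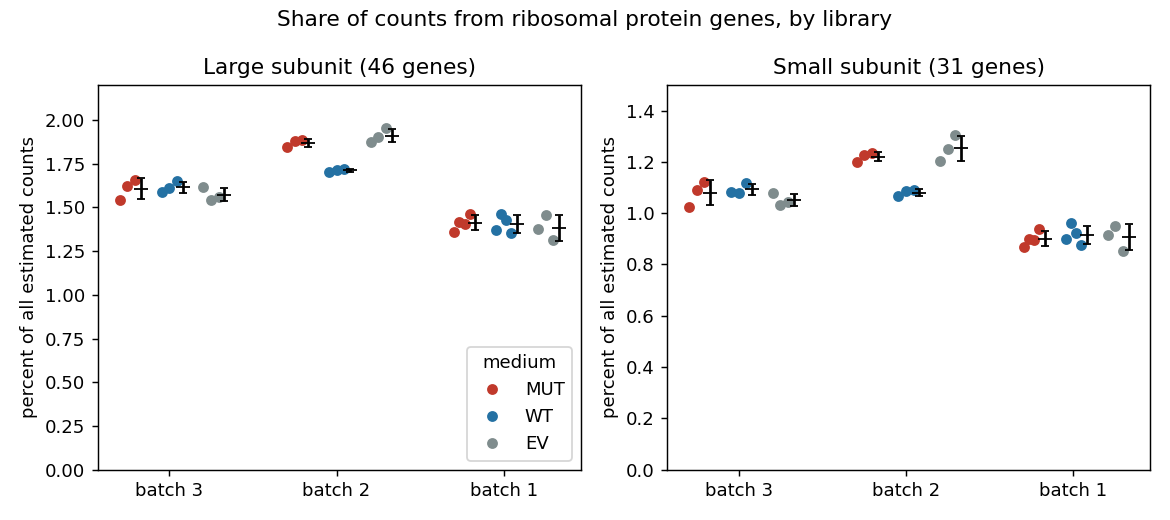
Share of all estimated counts (percent, y axis) from the 46 large subunit genes (left) and the 31 small subunit genes (right), with 1 point per library and the mean ± SD of each batch and medium beside it. Batch 1 lies lowest for both subunits, and in batch 2 the 3 WT libraries (1.70 to 1.72% large subunit) lie below the MUT and EV libraries.

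Between batch 2 and batch 1, adjusted for medium, 82 of the 88 genes rose and 2 fell (edgeR's quasi-likelihood test, Benjamini-Hochberg adjusted p under 0.05 over 20658 genes). Over all genes tested, 67.8% were called, 33.3% higher and 34.6% lower. The large subunit gave 45 of 46 higher with a median log2 fold change of 0.40, and the small subunit 28 of 31 higher and 1 lower with a median of 0.33, against -0.02 over all genes. RPS18, a protein of the small subunit head (ENSG00000231500, chr6:33272010-33276510, plus strand in GENCODE 29 on GRCh38), had 465 to 565 CPM in batch 2 and 249 to 302 CPM in batch 1. These ranges did not overlap, and RPS18 rose by 0.90 ± 0.04 (log2 fold change ± SE, adjusted p = 1.4e-17). The other large rises included RPL36 (0.74), RPL41 (0.71) and the read-through gene RPS10-NUDT3 (0.98).

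Several well-known ribosomal protein genes rose between batch 2 and batch 1. RPSA, also known as a laminin receptor, rose by 0.67 ± 0.04, and RPS6, the substrate of the S6 kinases, by 0.58 ± 0.05. RPS19, which is mutated in Diamond-Blackfan anaemia, rose by 0.50 ± 0.05. RPL11 and RPL5, which bind MDM2 together with 5S ribosomal RNA, rose by 0.40 ± 0.04 and 0.25 ± 0.04. RPL3, which lies near the peptidyl transferase centre, rose by 0.36 ± 0.04, and RPL10, which joins late in large subunit assembly, by 0.35 ± 0.04. RPS27A, made as a fusion with ubiquitin, rose by 0.19 ± 0.05 (adjusted p = 6.5e-04 by the quasi-likelihood test, and smaller for the others).

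The 2 genes that fell between batch 2 and batch 1 were RPL39L and RPS25. RPL39L, a paralog known from testis, had 1.45 to 2.88 CPM in batch 2 and 2.27 to 3.27 CPM in batch 1, ranges that overlapped, with a log2 fold change of -0.54 ± 0.11 (adjusted p = 9.5e-05 by the quasi-likelihood test). RPS25 had 74.8 to 95.5 CPM in batch 2 and 86.3 to 102 CPM in batch 1, with a log2 fold change of -0.12 ± 0.05 (adjusted p = 0.029 by the same test). The interaction of medium and batch was called for both (adjusted p = 0.0016 for RPS25 and 0.0060 for RPL39L, quasi-likelihood test). That test takes all 3 batches together and does not single out batch 2 against batch 1. For RPS25 only the WT libraries did not overlap (74.8 to 77.2 CPM in batch 2 and 89.8 to 95.4 CPM in batch 1). For RPL39L the EV libraries overlapped (2.35 to 2.88 CPM and 2.46 to 3.27 CPM). In batch 3 RPS25 had 66.1 to 88.7 CPM, and it fell by 0.37 ± 0.05 relative to batch 1 (adjusted p = 2.2e-07).

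Levels in batch 3 mostly lay between those in the other 2 batches. Relative to batch 1, 62 of the 88 genes were higher and 3 lower, against 58.2% of all genes called, 29.5% higher and 28.7% lower. Relative to batch 2, 2 were higher and 66 lower, against 45.5% of all genes, 22.6% higher and 22.9% lower. The medians for batch 3 over batch 1 were 0.21 for both subunits. For batch 3 over batch 2 they were -0.22 for the large subunit and -0.14 for the small subunit, and -0.01 and 0.00 were the medians over all genes for these comparisons. RPL26L1 (0.68 ± 0.04), RPS3A (0.59) and RPSA (0.57) had high values for batch 3 over batch 1, and RPS25, RPL39L (-0.33) and RPS27 (-0.09) were the 3 lower ones. RPL13 (-0.42), RPL36A-HNRNPH2 (-0.41), RPL36 (-0.40), RPS18 (-0.37), RPL6 (-0.34) and RPL11 (-0.33) were the lowest for batch 3 over batch 2, and RPS21 (0.18) and the uncertain RPS9 (1.84) the 2 higher ones. With 1 summed profile per batch and medium, the count for batch 3 over batch 2 fell to 19 genes, all lower. The share of all genes called in that setting is not given here.

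**Figure D2:**
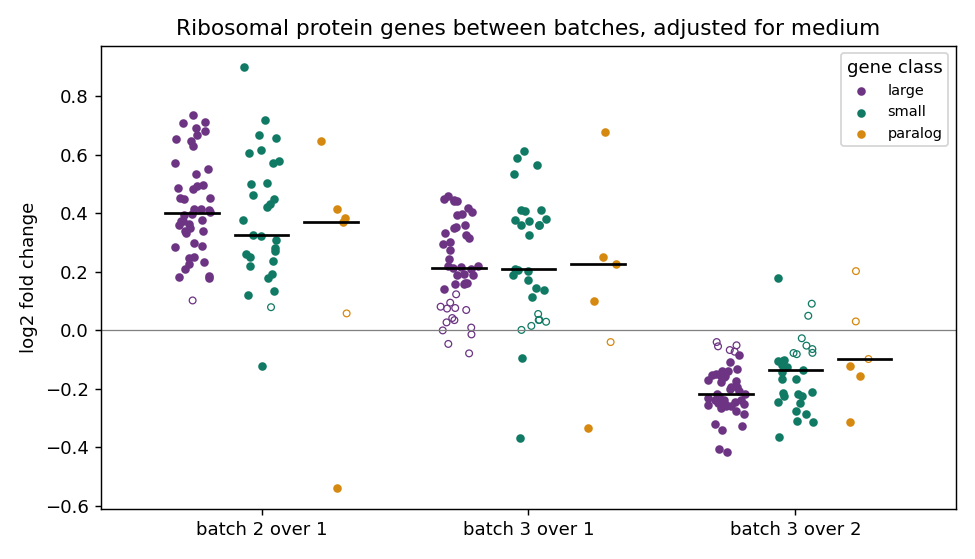
Log2 fold change between batches (y axis) for each gene, by class, with filled points for adjusted p under 0.05 and a black bar at the class median; RPS9 and RPS4Y1 are in the medians and are not drawn. Nearly all points for batch 2 over batch 1 are above 0, with medians of 0.40 (large) and 0.33 (small).

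Other genes of the translation machinery are given for batch 2 over batch 1, where 67.8% of all genes were called, 33.3% higher and 34.6% lower. FAU and RACK1 rose (0.53 and 0.38). Of 78 mitochondrial ribosomal protein genes, which form a separate ribosome, 71 rose and 0 fell (91.0% called), with a median of 0.41. Of 48 ribosome biogenesis genes 28 rose and 7 fell (72.9% called, near the share of all genes, median 0.15), among them NHP2 and NOP10, both proteins of box H/ACA particles (0.78 and 0.63). Of 19 translation factors whose mRNAs carry TOP motifs 13 rose and 3 fell (84.2% called, median 0.21), among them EIF4A2 (0.68) and EIF3K (0.69). The 16 regulators of TOP mRNAs split into 7 higher and 6 lower (81.2% called, median 0.00). Among these TSC1 (-0.58), an inhibitor of mTORC1 signalling, and LARP1 (-0.42) fell, while DEPTOR (1.17), which binds mTOR, rose.

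Between media, pooled over batches, 0 of the 88 genes passed the quasi-likelihood test in any comparison. For MUT against EV 5.48% of all genes were called, for MUT against WT 0.968% and for WT against EV 0.334%. An unadjusted p under 0.05 was found for 4 of the 88 for MUT against EV, against 4977 of all 20658 genes. It was found for 7 for WT against EV, against 2808 of all genes. The number was 15 for MUT against WT, with that over all genes not given here. The median log2 fold changes for the large and the small subunit were 0.01 and -0.01 for MUT over EV, 0.05 and 0.05 for MUT over WT, and -0.03 and -0.05 for WT over EV, and the medians over all genes were 0.00 in all 3. The smallest p belonged to RPL14, with a log2 fold change of 0.11 ± 0.03 for MUT over WT (adjusted p = 0.055). RPL36AL had 0.08 ± 0.03 for MUT over EV (adjusted p = 0.079), and RPL12 -0.10 ± 0.04 for WT over EV (adjusted p = 0.20). DESeq2 called 1 gene for MUT over EV and 3 for MUT over WT, and offsets for GC content and length gave 3 and 5, all higher in MUT.

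The difference between media was not the same in every batch. A test of the interaction of medium and batch called 57 of the 88 genes (64.8%), against 50.7% of all genes. Without batch 2, and so with fewer libraries, it called 2 of the 88, and the share of all genes called in that setting is not given here. The 5 smallest p-values were those of RPS24 (adjusted p = 3.6e-05 by the quasi-likelihood test), RPS3A (1.5e-04), RPL6 (1.9e-04), RPS15A (2.2e-04) and RPS6 (2.4e-04).

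In batch 2, cells in WT medium had the lower levels. For WT against EV 48 genes fell and 1 rose, where 34.8% of all genes were called and 17.0% were lower. The fall took in 25 of 46 large subunit genes (median -0.15) and 20 of 31 small subunit genes (median -0.21), with a median of -0.01 over all genes. For MUT against WT 40 genes rose and 0 fell, where 28.3% of all genes were called and 13.3% were higher. These were 21 large subunit genes (median 0.13), 18 small subunit genes (median 0.19) and RPS27L. Both comparisons use the same 3 WT libraries, so they are not independent.

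RPS3A, a small subunit protein (ENSG00000145425, chr4:151099573-151104652, plus strand), had 685, 638 and 700.4 CPM in MUT, 505, 541 and 525.8 CPM in WT, and 651, 663 and 709 CPM in EV libraries of batch 2. The WT libraries lay below all others of that batch. The log2 fold change was 0.36 ± 0.07 for MUT over WT and -0.36 ± 0.07 for WT over EV (adjusted p = 1.3e-04 and 8.4e-05 by the quasi-likelihood test). RPS24, which is mutated in some patients with Diamond-Blackfan anaemia, had 627, 619 and 657 CPM in MUT, 491, 516 and 508 CPM in WT, and 619, 582 and 605 CPM in EV libraries. Again the WT libraries did not overlap with the others. RPS4X, the X-linked copy of its gene, had 549, 542 and 555 CPM in MUT, 439, 439.8 and 438 CPM in WT, and 542, 533 and 541 CPM in EV libraries.

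RPS15A had 363, 381 and 375 CPM in MUT, 274, 304 and 300.4 CPM in WT, and 346, 368 and 433 CPM in EV libraries of batch 2. Its WT values were the lowest there too, with -0.39 ± 0.06 for WT over EV. RPL36A had 57.6, 58.7 and 58.7 CPM in MUT, 57.3, 45.98 and 55.0 CPM in WT, and 75.4, 74.2 and 72.6 CPM in EV libraries. Unlike RPS3A it was highest in EV, with -0.34 ± 0.07 for MUT over EV and -0.49 ± 0.07 for WT over EV (adjusted p = 2.8e-04 and 5.0e-06 by the quasi-likelihood test). RPL39L was also highest in EV, with 1.80, 1.45 and 1.89 CPM in MUT, 1.73, 1.64 and 1.75 CPM in WT, and 2.54, 2.35 and 2.88 CPM in EV libraries. Its MUT and WT libraries overlapped. RPL21 (0.36) and RPS21 (0.32) were among the 6 highest for MUT over WT. RPS21 (-0.43) and RPL22L1 (-0.34) were among the 6 lowest for WT over EV, and RPS19BP1 (0.26) was the 1 that rose.

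The share of mitochondrial transcripts also differed in batch 2, with 4.89 to 5.41% in MUT, 3.99 to 4.05% in WT and 4.80 to 5.25% in EV libraries. Across genes, the log2 fold change in batch 2 was correlated with GC content, with Spearman's rho of -0.353 over 18860 genes and -0.354 over the 88 for MUT over WT, and of 0.172 and 0.225 for WT over EV. In batches 1 and 3, rho over the 18860 genes was -0.432 and 0.352 for MUT over EV and -0.25 and 0.402 for MUT over WT. For WT over EV it was -0.289 and -0.126 in these batches. Genes are not independent replicates, and the part of the mitochondrial share or of GC content in the results was not tested. With offsets for GC content and length, the large subunit median for WT over EV in batch 2 was -0.07.

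For MUT against EV in batch 2, 5 of the 88 genes rose and 8 fell, fewer than the 44.4% called over all genes. RPL23, RPL6, RPL5, RPS27L and RPS19BP1 rose (0.12 to 0.23), and RPL39L, RPL36A, RPS29, RPL3, RPL10, RPL12 and RPL10A were 7 of the 8 that fell (-0.60 to -0.16). This split depended on the scaling, with 1 higher and 11 lower by total library size and 20 higher and 4 lower with offsets for GC content and length. Without EV library 2, EV library 3 or MUT library 1 of that batch the count was 5, 8 or 6.

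**Figure D3:**
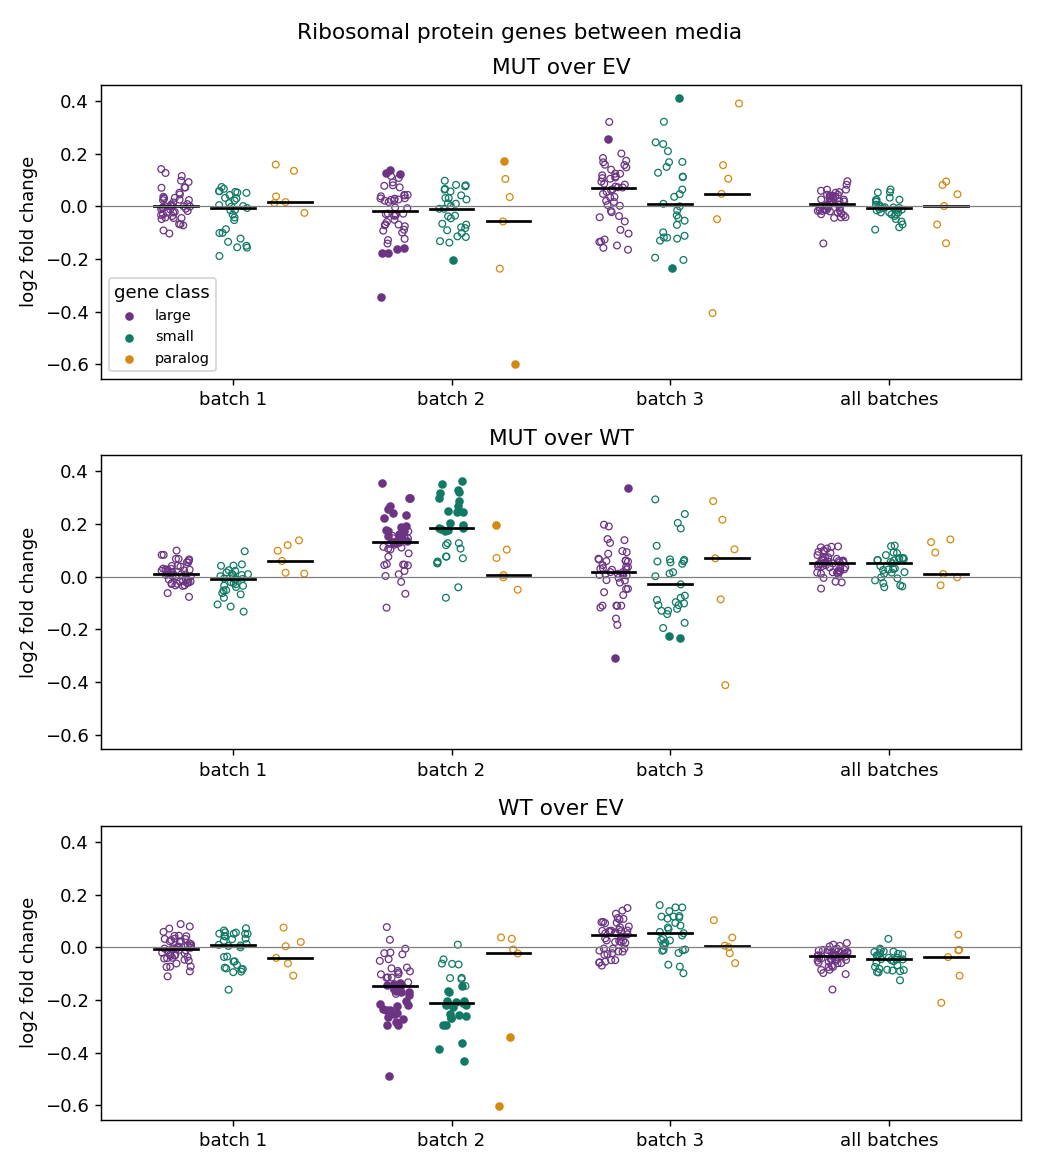
Log2 fold change between media (y axis) for each gene in each batch and over all batches, by class, with filled points for adjusted p under 0.05 and a black bar at the class median; RPS9 and RPS4Y1 are in the medians and are not drawn. In batch 2 the large and small subunit medians are 0.13 and 0.19 for MUT over WT and -0.15 and -0.21 for WT over EV, while over all batches every point is open.

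Few genes were called in the other batches. In batch 1, MUT against EV gave 1 higher and 2 lower (9.64% of all genes called), and MUT against WT and WT against EV gave 0 (5.01% and 1.09%). In these last 2 comparisons 5 and 1 of the 88 had an unadjusted p under 0.05, with the numbers over all genes not given here. The 3 in batch 1 were the uncertain RPS9 and the read-through genes RPS10-NUDT3 (-0.83 ± 0.24) and RPL17-C18orf32 (0.17 ± 0.05). In batch 3, MUT against EV gave 3 higher and 1 lower (0.992% of all genes called). RPS15 had 267, 313 and 309 CPM in MUT and 235, 215 and 219 CPM in EV libraries, which did not overlap, with a log2 fold change of 0.41 ± 0.10 (adjusted p = 0.043 by the quasi-likelihood test). RPL38 (0.25 ± 0.06) and RPS9 were also higher. Without any 1 of the 3 EV libraries or without MUT library 2 or 3 of that batch, 0 of the 88 were called for MUT against EV in batch 3. In batch 1 the count for MUT against EV was 0 without EV library 2 or MUT library 2, 1 without EV library 4 or MUT library 3, 5 without MUT library 4 and 8 without EV library 3. By total library size the splits became 2 higher and 2 lower in batch 1 and 3 higher and 2 lower in batch 3.

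MUT against WT in batch 3 gave 1 higher, RPL28 (0.34 ± 0.09), and 3 lower, among them RPLP2 and RPS7 (3.40% of all genes called). RPLP2, a stalk protein, had 192, 208 and 209 CPM in MUT and 304, 235 and 214 CPM in WT libraries, where the value of 304 CPM is WT library 1. Without that library, or without MUT library 2 or 3 of that batch, 0 of the 88 were called in this comparison. The count was 1 without WT library 2, 2 without MUT library 1 and 21 without WT library 3. WT against EV in batch 3 gave 0, where 0.00484% of all genes were called (DESeq2 also called 0). There 8 of the 88 had an unadjusted p under 0.05, with the number over all genes not given here. Without WT library 1 of batch 3, MUT against EV in batch 3 gave 10, MUT against WT in batch 2 gave 43 and WT against EV in batch 2 gave 53.

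**Figure D4:**
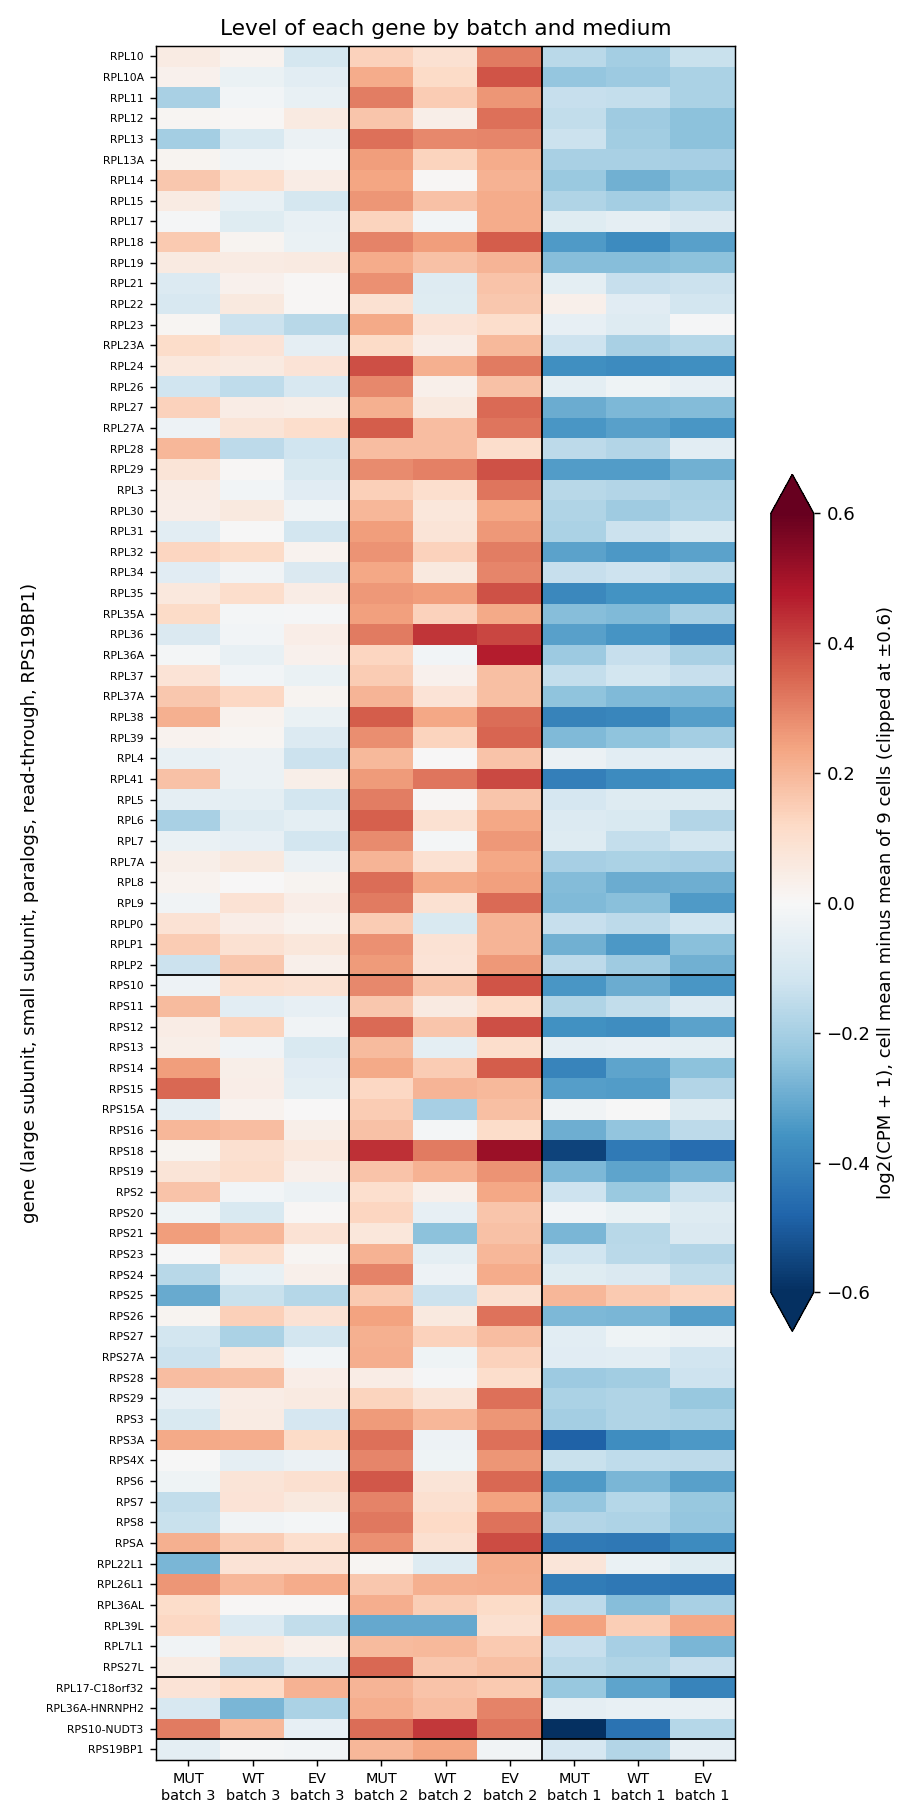
Mean log2(CPM + 1) of each gene in the 9 combinations of batch and medium, as the difference from the gene's mean over the 9 (colour, clipped at ±0.6), for 83 of the genes by class. Most rows are blue in batch 1 and red in batch 2, with paler WT columns in batch 2, while RPL39L and RPS25 are red in batch 1.

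Of the 6 paralogs described here, 5 lay below their main copies in every library. RPL22L1 ran from 4.88 to 9.36 CPM against 279 to 385 CPM for RPL22, and RPL39L from 1.45 to 3.27 CPM against 106 to 191 CPM for RPL39. RPL26L1 ran from 16.2 to 30.7 CPM against 235 to 369 CPM for RPL26, and RPS27L, which p53 can induce, from 13.5 to 23.2 CPM against 256 to 411 CPM for RPS27. RPL36AL was the exception, with 62.1 to 94.4 CPM against 41.1 to 75.4 CPM for RPL36A. This order may depend on how reads were shared between RPL36A, RPL36AP37 and RPL36A-HNRNPH2, which was not tested. RPL7L1, a factor of large subunit assembly, ran from 163 to 246 CPM, against 393 to 566 CPM for RPL7.

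Main copy and paralog had unlike fold changes between batches in some pairs and like ones in others. For batch 3 over batch 1, RPL26L1 rose by 0.68 ± 0.04 and RPL26 had -0.08 ± 0.04 (adjusted p = 4.3e-15 and 0.11 by the quasi-likelihood test). For batch 2 over batch 1, RPL39 rose by 0.50 ± 0.04 while RPL39L fell. RPL22 and RPL22L1 had 0.10 ± 0.05 and 0.06 ± 0.09 for batch 2 over batch 1, with adjusted p-values of 0.054 and 0.58. RPL36A and RPL36AL rose by 0.38 ± 0.06 and 0.37 ± 0.03. The difference within a pair was not tested.

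In batch 2 the lists other than the translation factors had calls near or below the share of all genes for MUT against WT (28.3%), and shares on either side of it for WT against EV (34.8%). For MUT against WT, 15 of 19 translation factors with TOP mRNAs rose and 0 fell (78.9% called, median 0.18), and for WT against EV 0 rose and 10 fell (52.6%, median -0.12). Of 78 mitochondrial ribosomal protein genes 10 rose and 11 fell for MUT against WT (26.9%, median -0.02), and 4 rose and 17 fell for WT against EV (26.9%, median -0.04). Of 48 ribosome biogenesis genes 4 rose and 5 fell for MUT against WT (18.8%, median 0.00), and 3 rose and 20 fell for WT against EV (47.9%, median -0.12). Of 16 TOP mRNA regulators 1 rose and 4 fell for MUT against WT (31.2%), and 8 rose and 1 fell for WT against EV (56.2%). Pooled over batches, 1 translation factor, EIF3L, rose for MUT against WT (0.13 ± 0.03, adjusted p = 0.048 by the quasi-likelihood test).

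Across the 29 libraries, which share batch and depth, most subunit genes followed the mean of the others. Pearson's r of each gene with the mean of the other subunit genes had a median of 0.94 for the large subunit (0.444 to 0.978) and 0.86 for the small subunit (-0.295 to 0.967). After subtracting the mean of each batch and medium, both medians were 0.689, and that of the 7 paralogs was 0.247. RPL7A, RPL32 and RPL18 followed the others most closely (0.978, 0.976 and 0.971). RPL39L (-0.527), RPS25 (-0.295) and RPS9 (0.138) followed them least.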

How the data were processed

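Polyadenylated RNA of 29 EndoC-βH1 libraries was sequenced from stranded libraries, per the labels' protocols. The values the authors deposited are estimated counts for Ensembl genes, made with fastp and kallisto per the submitters' processing notes. Tool versions, build and annotation: not given in the sources used here. Of the values 24.05% were not whole, and counts were rounded. Entries without a symbol held 3.59% of counts. Entries of 1 symbol were summed.

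Genes passing filterByExpr (20658) were scaled by TMM and tested with edgeR 4.0.16 (limma 3.58.1, R 4.3.3), by quasi-likelihood with Benjamini-Hochberg adjustment over all genes. Pooled comparisons used batch and medium (24 residual degrees of freedom), within-batch ones and the interaction 9 combinations (20). The standard error was the fold change divided by the square root of F. CPM are TMM-scaled, except the RPS9 sums, the levels of non-coding entries and the mean that chose the genes. The code was tested on simulated data. Lengths came from GENCODE 29 protein-coding transcripts. A few genes are not reported here by name. Figures used matplotlib 3.10.9.

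The genes, lists and alternatives (DESeq2 1.42.0, scaling, filters, offsets, left-out libraries and batches) were chosen with earlier results of these data known. Named genes are the 6 highest and lowest called per comparison, the 6 highest and lowest levels, paralogs, a short set of known ribosomal proteins and up to 4 called genes per other list; RPL14, RPL12, RPL36AL and those of smallest interaction p or extreme correlation were chosen after their values were seen.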

Additional observations from a re-analysis of the deposited data

Results flagged for a closer look

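The interaction of medium and batch, which tests whether a difference between media differed between batches, called 57 of the 88 genes (64.8%), against 50.7% of all genes. Genes with small p were RPS24 (adjusted p = 3.6e-05), RPS3A (0.00015), RPL6 (0.00019), RPS15A (0.00022), RPS6 (0.00024), RPL7 (0.00031), RPS4X (0.0004), RPL12 (0.00041) and RPL5 (0.00044), by edgeR's quasi-likelihood test with Benjamini-Hochberg adjustment.

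Single libraries stood apart from their group by Dixon's test in 13 of 250 sets of values. The sets hold correlated genes and some pool batches, so the chance rate of 1 in 20 does not apply to them. WT library 1 of batch 3 gave 6 of the 13, among all WT libraries: RPL22 at 385 CPM (nearest 320.4), RPL22L1 at 9.02 (7.24), RPL26 at 235 (279), RPLP2 at 304 (239.8), RPS27 at 256 (326) and RPS27A at 347 (309). Its mitochondrial share was 3.60% and its total 26.2 M, the lowest of the 29 in both. In batch 1, RPL7L1 was at 190.2 CPM in WT library 3 (nearest 181) and RPLP2 at 213 CPM in MUT library 4 (194). RPS15A was at 433 CPM in EV library 3 of batch 2 (nearest 368). The uncertain RPS9 gave 4, at 186 CPM in WT library 3 of batch 3, 167 CPM in EV library 2 of batch 1, 31.95 CPM in MUT library 4 of batch 1 and 14.45 CPM in WT library 4 of batch 1.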

How the results depend on the processing

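The counts for batch 2 over batch 1 (78 to 85) and, in batch 2, for MUT over WT (31 to 43) stayed within 1.5 times under every alternative run for them, as did WT over EV in batch 2 (35 to 55). The replicate block used title numbers. Same-numbered libraries did not deviate together (r from -0.042 to 0.1 in 28 pairs, 0 over 0.1). That cannot show whether same-numbered libraries share a culture, which the labels do not state. With the block 84, 64 and 61 genes were called between batches 2 and 1, 3 and 1, and 3 and 2, 0 between pooled media, 40 for MUT over WT and 46 for WT over EV in batch 2, and 57 by the interaction. Pooled MUT against EV gave 1 by DESeq2, 3 with GC and length offsets, 2 without batch 1 and 2 without batch 3. Pooled MUT against WT gave 3 by DESeq2, 1 with its size factors, 1 with TMM factors computed without these genes, 5 with the offsets and 4 without batch 3, and WT against EV gave 2 without batch 3. Batch 3 over batch 2 gave 19 with summed profiles, and the interaction 2 without batch 2. Shares of all genes called under the alternatives are not given here. MUT against EV gave 5 (DESeq2) and 7 (offsets) in batch 1, 24 (offsets) in batch 2, and 14 (DESeq2), 8 (offsets) and 2 (RPS9 summed with the traded entries, chosen after seeing the data) in batch 3. MUT against WT gave 5 (offsets) in batch 1 and 10 (DESeq2) and 8 (offsets) in batch 3, and WT against EV in batch 1 gave 1 by DESeq2 and 1 without the low-count filter. The small subunit median for pooled MUT over WT was -0.035 without batch 2. With the offsets the large subunit medians were 0.34 for batch 2 over batch 1, 0.0502 for MUT over EV and -0.0712 for WT over EV in batch 2. RPS9 for batch 3 over batch 2 reversed to -0.19 when summed. Without RPS9, the mean ratio of large to small subunit counts in batch 3 was 1.519 in MUT, 1.489 in WT and 1.499 in EV libraries. The cause of these shifts was not tested.

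Leaving out 1 library at a time, the counts ran from 0 to 1 for MUT against EV (1 without EV library 2 of batch 1), 0 to 2 for MUT against WT (2 without WT library 1 of batch 3; 1 without WT library 3 of batch 3, EV library 2 of batch 1 or MUT library 1 of batch 1), and 0 to 0 for WT against EV. They ran from 0 to 8 for MUT against EV in batch 1 (0 without EV library 2 or MUT library 2, 1 without EV library 4 or MUT library 3, 5 without MUT library 4 or WT library 1 of batch 3, 8 without EV library 3), 5 to 18 in batch 2 and 0 to 10 in batch 3. In batch 3 the count was 0 without any EV library of that batch or MUT library 2 or 3, 2 without WT library 3 of batch 1 or EV library 3 of batch 2, 7 without EV library 2 or MUT library 4 of batch 1, 8 without WT library 3 and 10 without WT library 1. MUT against WT ran from 0 to 1 in batch 1 (1 without WT library 4) and 0 to 21 in batch 3 (0 without WT library 1 or MUT library 2 or 3, 1 without WT library 2, 2 without MUT library 1, 21 without WT library 3), and WT against EV in batch 1 from 0 to 2 (2 without EV library 3, 1 without WT library 3 of batch 3). Of 59 changes of named genes, 2090 values under alternatives kept their call, 176 lost it and 1 reversed. Summed profiles leave no spread inside a batch, so within-batch comparisons could not be fitted that way.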
